A study of Arabidopsis thaliana with 4 samples.

Results

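The nuclear genes of the chloroplast NDH complex were followed in rosette leaves of Arabidopsis thaliana, ecotype Columbia, infested with silverleaf whitefly, a phloem-feeding insect (Bemisia tabaci type B) whose nymphs were developing on the leaves. They were taken as every probe set whose single gene symbol in the platform annotation starts with Ndh and a capital letter from L to U, or with CRR and a number, leaving out genes of the plastid genome. This gave 8 probe sets for 8 genes, NdhL, NdhN, NdhS, CRR41, CRR42, CRR21, CRR22 and CRR28, of 22746 probe sets that are not controls. Each has a probe set of its own, and none is shared between members.

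The NDH complex sits in the thylakoid membrane and passes electrons from ferredoxin, which photosystem I reduces, back to plastoquinone. It thus serves one of the routes of cyclic electron flow around photosystem I, and in the dark it contributes to chlororespiration, after which the CRR (chlororespiratory reduction) genes are named. Part of its subunits is encoded in the plastid genome (the ndh genes, in lower case) and the rest in the nucleus, together with the factors that assemble the complex and edit the plastid ndh transcripts. Its genes are active in green leaves, where the complex is a minor one among the photosynthetic complexes.

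Each infested plant received 100 adult whiteflies at an age of 21 days. The adults stayed for 7 days, and infested leaves were harvested at 28 days of infestation from plants aged 7 weeks. Uninfested plants of the same ecotype and age were caged alongside without whiteflies, and developmentally matched leaves were taken from them; all plants had 8 h of light per day. Affymetrix ATH1 arrays measured 2 infested and 2 uninfested samples, each RNA pooled from 2 replicate experiments, or 20 plants, so p-values describe the spread between pools. The labels do not say whether nymphs were taken off before extraction.

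All 4 arrays had the same trimmed mean signal of 500.0 by the authors' scaling, and their medians lay between 185.25 and 205.2. Control probe sets for bacterial transcripts read at most 52.1, so low that these transcripts were taken as not added, and this marks the level of an absent transcript. Of the mesophyll markers, 2 of 6 could be named. Their summed signal was 30542.6 to 33981.6 on infested and 39264.8 to 43060.9 on uninfested arrays, far above the absent controls on each. RCA had 19115.2 and 17614.3 on infested and 19523.2 and 21392.2 on uninfested arrays. LHCB4.2 had 14866.4 and 12928.3 against 19741.6 and 21668.7. The log2 changes, infested minus uninfested, were -0.16 for RCA and -0.58 for LHCB4.2. Neither passed limma as used below (adjusted p = 0.427 and 0.0613), and LHCB4.2 passed with the block described there (0.0327). Of the root markers, 2 of 3 could be named, and both were too dim to test. They summed to 186.1 to 196.6 on infested and 98.6 to 118.4 on uninfested arrays. PYK10 had 135.2 and 104.1 on infested arrays, and EXPA7 had 61.4 and 82. On uninfested arrays PYK10 had 53.5 and 54.5 and EXPA7 had 45.1 and 63.9, near the level of the absent controls. Of the guard cell markers, 2 of 3 could be named. They summed to 1018.1 to 1193.7 on infested and 1994.6 to 2094.1 on uninfested arrays. Most of this sum was AT1G22690, with 937.6 and 854.2 on infested and 1840.7 and 1711.1 on uninfested arrays. AT1G22690 itself passed limma as lower (log2 change -0.98, adjusted p = 0.0411, or 0.00649 with the block). The other, FMA, had 256.1 and 163.9 against 253.4 and 283.5, so its groups overlapped. One of 2 actin control pairs had a ratio of 3' to 5' signal, a sign of RNA integrity, of 5.70 and 6.56 on infested and 2.70 and 3.88 on uninfested arrays, and the other had 1.31 and 1.43 against 1.43 and 1.42. The ratios of the GAPDH and ubiquitin pairs ran from 0.975 to 2.08 on infested and from 0.980 to 2.77 on uninfested arrays. The array infested 2 stood apart, with 27 tested probe sets at least 8-fold above every other array and 16 at least 8-fold below, against 0 above on each of the others and 1 below on uninfested 1. The part of these differences in the results below was not tested.

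The 8 NDH genes all read lower on both infested arrays than on either uninfested array. Such a lower separation was found for 24.4% of all 22746 probe sets that are not controls. Of the 8 genes, 6 were bright enough on average to be tested (the dimmest 40% of probe sets were left out), and CRR22 and CRR28 were not. NdhL, NdhN and CRR42 fell at an adjusted p under 0.05 and 0 members rose, by limma with Benjamini-Hochberg adjustment over 13648 probe sets; at an unadjusted p under 0.05, 5 were lower and 0 higher. Among all tested probe sets 2.54% were called lower and 2.83% higher, and 13.6% were lower and 14.1% higher at the unadjusted threshold. With the array number in the titles as a block, 5 of the 6 fell, the exception being CRR41, and 0 rose, while 10.3% of all tested probe sets were called lower and 9.19% higher. The median log2 change was -1.16 over the 6 tested members and -1.18 over all 8, beside 0.04 over all tested probe sets. In pooled leaves, fewer cells that express a gene and less of its RNA per cell cannot be told apart.

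**Figure D1:**
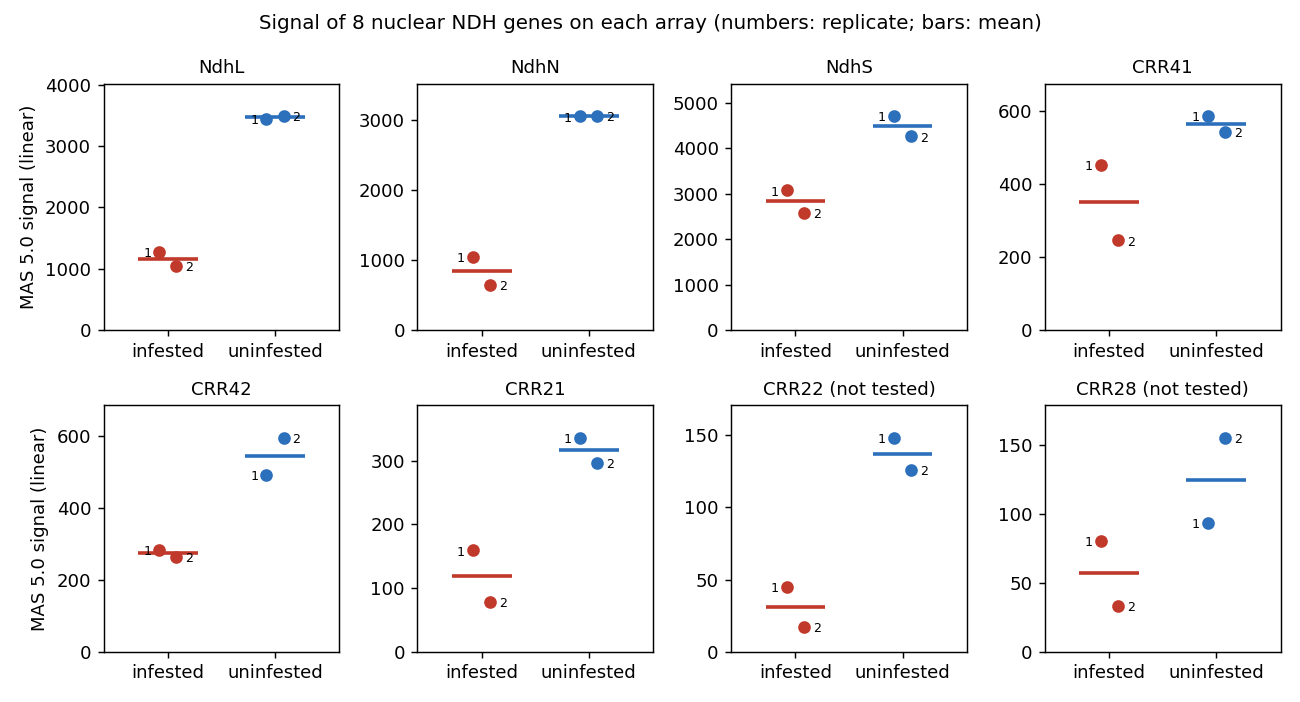
MAS 5.0 signal (linear axis from 0) of the 8 nuclear NDH genes on each array, infested left and uninfested right, with points numbered by replicate and a bar at the mean of 2. In every panel both infested points lie below both uninfested points, and infested 2 lies below infested 1.

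NdhL (AT1G70760, also CRR23) encodes a membrane-spanning subunit of the subcomplex that receives electrons on the stromal side. Its signal was 1273.3 and 1047.3 on the infested arrays, against 3450.9 and 3497.6 on the uninfested ones. The infested pools were both low and the uninfested pools nearly coincided, so the groups were far apart beside their spread. The means were 1160 ± 160 in infested and 3474 ± 33.0 in uninfested leaves (SD, n = 2 each), a fall of 2.98-fold on log2(signal + 16), the scale of all fold changes here. The log2 change was -1.58 with a 95% interval from -2.00 to -1.15 and an adjusted p of 0.0297 by limma. Only 1.17% of tested probe sets fell by at least as much.

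NdhN (AT5G58260) encodes a peripheral subunit of the same stromal subcomplex. Its signal was 1044.9 and 645.2 on the infested arrays, against 3062.8 and 3067.7 on the uninfested ones. The infested pools differed from each other more than those of NdhL, and both stayed well below the uninfested pair. NdhN had the most negative log2 change among the 6 tested members, -1.88 with a 95% interval from -2.51 to -1.25, or 3.68-fold lower in infested leaves (limma adjusted p = 0.0342). A fall at least as large was seen in 0.491% of tested probe sets.

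NdhS (AT4G23890, also CRR31) encodes the subunit that forms the docking site for ferredoxin. It had 3078.8 and 2585.3 on the infested arrays, against 4717.5 and 4269.7 on the uninfested ones. The groups did not overlap, with 2832 ± 349 in infested and 4494 ± 317 in uninfested leaves (SD, n = 2 each). The log2 change was -0.67 (95% interval -1.07 to -0.26), and it did not pass limma's test (adjusted p = 0.0754) but did with the block (adjusted p = 0.0217). With quantile normalization the change of NdhS was -0.58 (limma adjusted p = 0.114). It was -0.79 without infested 1 and -0.54 without infested 2. Without uninfested 1 it was -0.59, and without uninfested 2 it was -0.74. Across the 3 subunit genes on the stromal side the changes ran from 1.59-fold lower for NdhS to 3.68-fold lower for NdhN; the difference between them was not tested.

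Of the assembly factors, CRR42 (AT5G20935) acts in the chloroplast stroma in building the stromal subcomplex. Its signal was 283.6 and 263.8 on the infested arrays, against 492.6 and 596.8 on the uninfested ones. The infested pools were the closer pair, at 274 ± 14.0, beside 545 ± 73.7 in uninfested leaves (SD, n = 2 each). The log2 change was -0.95 with a 95% interval from -1.39 to -0.51 (limma adjusted p = 0.0464), 1.93-fold lower, and 5.68% of tested probe sets fell by at least this much. The call of CRR42 lay close to the threshold and was lost without the variance trend of limma (adjusted p = 0.0523).

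CRR41 (AT1G51100) is another stromal factor needed to assemble this subcomplex. It had 452.2 and 245.4 on the infested arrays, against 586.2 and 541.7 on the uninfested ones. Infested 1 lay nearer to the uninfested arrays than to infested 2. The log2 change of CRR41 was -0.73 with a 95% interval from -1.46 to 0.01, and it did not pass limma's test (adjusted p = 0.183, or 0.0543 with the block). Its value moved with the infested array used. Without infested 2 it was -0.31 (adjusted p = 0.302), and without infested 1 it was -1.15 (adjusted p = 0.00256).

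The remaining members encode pentatricopeptide repeat proteins, which bind particular sites of organelle RNA and direct C-to-U editing. CRR21 (AT5G55740) is needed to edit the ndhD transcript. Its signal was 159.4 and 78 on the infested arrays, against 336.4 and 296.5 on the uninfested ones. The log2 change of -1.37 (95% interval -2.17 to -0.57) was larger in size than that of CRR42, but its infested pair was spread more widely and it did not pass limma's test (adjusted p = 0.0689). CRR21 passed with the block (limma adjusted p = 0.00822) and with median scaling (-1.39, adjusted p = 0.0473). In those settings 10.3% and 4.34% of all tested probe sets were called lower. It did not pass with quantile normalization (-1.40, adjusted p = 0.0519), without the variance trend (0.0710) or with every probe set tested (0.132). Its change was -1.82 without infested 1 and -0.92 without infested 2. Without uninfested 1 it was -1.28, and without uninfested 2 it was -1.46.

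CRR22 (AT1G11290), which edits ndhB, ndhD and an RNA polymerase transcript, was too dim to test. It had 44.8 and 17.1 on the infested arrays, against 148.4 and 125.9 on the uninfested ones. Both infested values are at or below the brightest absent control of their own array, and both uninfested values are above it. CRR22 was thus at least 2.44-fold lower in infested leaves, taking that control as the lowest readable level, with no test among the bright probe sets. When every probe set was tested, its adjusted p was 0.0986.

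CRR28 (AT1G59720), needed to edit ndhB and ndhD, was likewise not tested. It had 80.4 and 33.3 on the infested arrays, against 93.7 and 155.7 on the uninfested ones. The gap between the groups was small beside the spread within each, since 80.4 and 93.7 are neighbours, and 1 of the 2 infested values is below the absent controls. With every probe set tested, the log2 change of -0.99 had an adjusted p of 0.283. The log2 change of CRR28 was -0.51 without infested 2 and -1.48 without infested 1.

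The size of the fall differed between the pairs of same-numbered arrays. In the pair of arrays numbered 2, infested leaves had 29.9% of the uninfested NdhL signal, 21.0% for NdhN, 60.5% for NdhS and 44.2% for CRR42. In the pair numbered 1 the corresponding shares were 36.9% for NdhL, 34.1% for NdhN, 65.3% for NdhS and 57.6% for CRR42. All 8 members were lower by more in pair 2 than in pair 1, as were 59.8% of all tested probe sets and 87.9% of those called lower. All 8 also read lower on infested 2 than on infested 1, as did 58.4% of tested probe sets, whereas uninfested 1 was the higher of the uninfested arrays for 4 of the 8. The gap between pairs was widest for CRR28, with log2 differences of -0.19 in pair 1 and -1.80 in pair 2, and narrowest for NdhS, with -0.61 and -0.72.

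**Figure D2:**
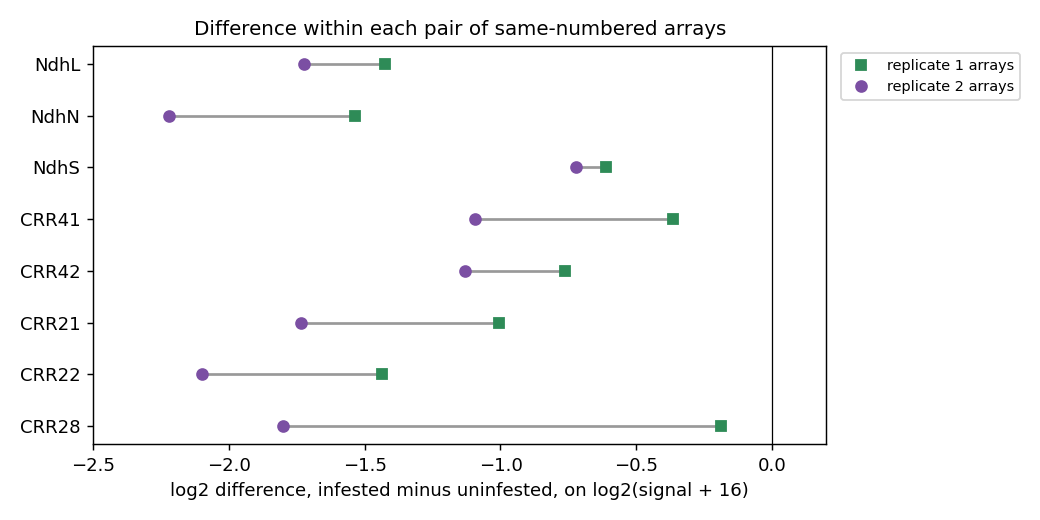
Difference of infested minus uninfested on log2(signal + 16) within each pair of same-numbered arrays, for the 8 members, with squares for replicate 1 and circles for replicate 2. Both marks of each gene lie left of 0, and the replicate 2 mark is the more negative in all 8.

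Among all tested probe sets the 6 tested members lay on the falling side, between -1.88 and -0.67 in log2 change. A fall at least as large was seen in 10.7% of tested probe sets for NdhS, in 9.47% for CRR41 and in 1.97% for CRR21. These positions describe the genes and carry no test of the group.

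**Figure D3:**
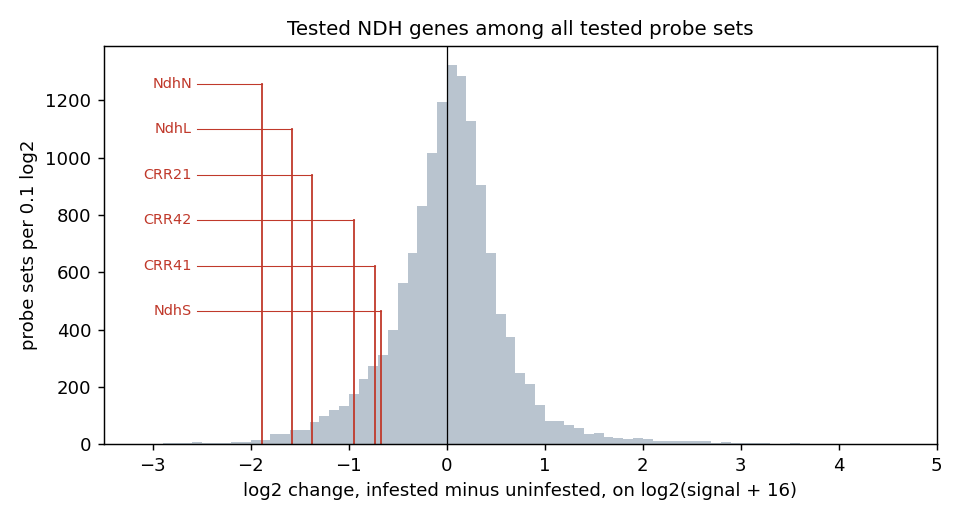
Histogram of the log2 change (infested minus uninfested, on log2(signal + 16)) of all 13648 tested probe sets in bins of 0.1, with red lines at the 6 tested NDH genes. The bulk of probe sets centres on 0.04, and the 6 lines run from -1.88 (NdhN) to -0.67 (NdhS).

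Of 35 nuclear genes listed as subunits, assembly factors or transcript factors of the complex, 11 had a probe set with a single named gene, the 8 members among them, and 8 were tested. The lists were drawn up with earlier results of these data known. Of these 8, 4 fell and 0 rose by limma, or 6 fell with the block. Among all tested probe sets 2.54% were called lower by limma and 10.3% with the block. These counts repeat the members, which make up 3 of the 4 and 5 of the 6. The fourth gene called by limma was Cpn60beta4 (AT1G26230), a chaperonin subunit needed to fold the plastid-encoded subunit NdhH. Its signal was 240.2 and 155.7 on the infested arrays, against 547.8 and 447.8 on the uninfested ones, a log2 change of -1.29 ± 0.25 (SE, limma adjusted p = 0.0488). Cpn60beta4 lost its call without the variance trend (adjusted p = 0.0536). OTP84 (AT3G57430), another editing factor of ndh transcripts, had 219.5 and 177.1 on the infested arrays, against 203.1 and 218.9 on the uninfested ones. The groups overlapped and its log2 change was -0.09, with a 95% interval from -0.57 to 0.39. OTP85 (AT2G02980), which edits ndhD, was too dim to test and also overlapped, with 85 and 40.4 on infested and 130.3 and 75.9 on uninfested arrays. Genes of subcomplex B, of the lumen subcomplex and of the linkers to photosystem I were not analysed here by name.

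The plastid-encoded ndh genes supply the partner subunits. Of 12 plastid loci, 10 had a probe set with a single gene and 9 were tested, and 0 passed limma's test (2 lower and 0 higher at an unadjusted p under 0.05), beside 2 lower with the block. Their median log2 change was -0.22, with a range from -0.73 to 0.31. The most negative was ndhH, whose product lies in the same stromal subcomplex as NdhL and NdhN. It had 804.8 and 687 on the infested arrays, against 1478.6 and 1042.7 on the uninfested ones (log2 change -0.73, limma adjusted p = 0.113, or 0.0244 with the block). For ndhE the signal was 1434.3 and 1418.1 on the infested arrays, against 2686 and 1929 on the uninfested ones (log2 change -0.67, adjusted p = 0.113, or 0.0362 with the block). The signals of ndhH and ndhE were lower on both infested arrays, but the uninfested arrays differed widely from each other.

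Further log2 changes were -0.36 for ndhA, -0.22 for ndhC, -0.45 for ndhG and 0.31 for ndhK, with adjusted p between 0.210 and 0.460. The value of ndhK, the upper end of the plastid range, was 0.63 without uninfested 1 and -0.01 without uninfested 2. The sign of ndhJ turned too, from -0.15 (limma adjusted p = 0.689) to 0.12 without uninfested 1. The transcript that CRR21, CRR22 and CRR28 edit, ndhD, had 7449.7 and 8027.5 on the infested arrays, against 8253.8 and 6673.2 on the uninfested ones, so its groups overlapped. The log2 change of ndhD was 0.06 with a 95% interval from -0.33 to 0.45, and its sign turned without uninfested 2 (-0.09). Levels of editing are not read by these probe sets. The labelling protocol primes from poly(A) tails, which plastid transcripts mostly lack, so their signals may not follow their abundance; this was not tested. The difference between nuclear and plastid NDH genes was not tested either.

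**Figure D4:**
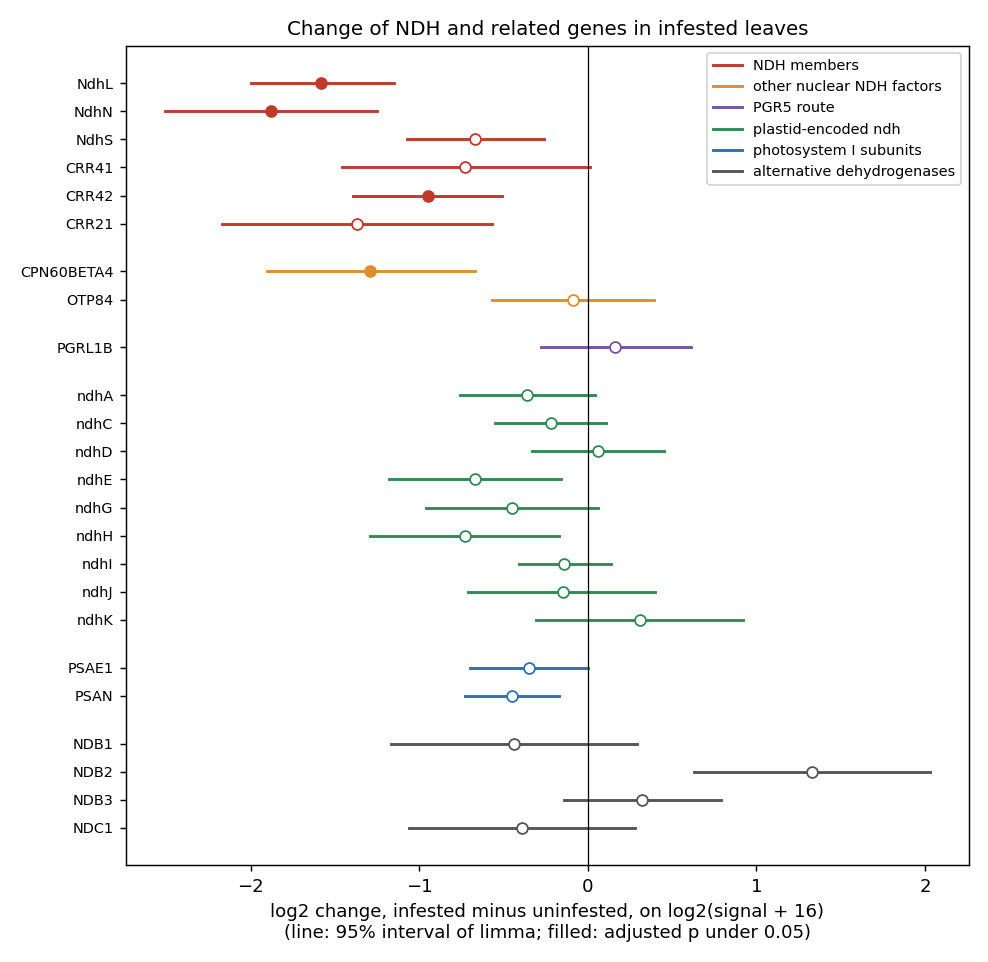
Log2 change, infested minus uninfested, with the 95% interval of limma for the tested NDH members and related genes, coloured by group; filled circles passed at an adjusted p under 0.05. The filled circles are NdhL, NdhN, CRR42 and Cpn60beta4, and the plastid-encoded ndh genes lie between -0.73 and 0.31.

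Other routes for the same electrons were measured through few genes. PGRL1B (AT4G11960), of the PGR5-dependent route of cyclic electron flow, had 1055.5 and 1031.2 on the infested arrays, against 838.6 and 1033.4 on the uninfested ones. The groups overlapped, and the log2 change was 0.16 with a 95% interval from -0.28 to 0.61. Of 12 photosystem I subunit genes 2 were tested, with 0 called by limma and 2 lower at an unadjusted p under 0.05. PSAN had 12393.1 and 11770.5 on the infested arrays, against 16331.6 and 16613.7 on the uninfested ones (log2 change -0.45, adjusted p = 0.0803), and PSAE1 had a log2 change of -0.35 (adjusted p = 0.179). Both had groups that did not overlap, with smaller changes than any tested NDH member.

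The alternative NAD(P)H dehydrogenases are single-protein enzymes, mostly of mitochondria, that also pass electrons to quinone. Of 7 such genes 4 were tested, with 0 called by limma (0 lower and 1 higher at an unadjusted p under 0.05). NDB2 (AT4G05020), an outward-facing enzyme of the inner mitochondrial membrane, had 812.1 and 1401.5 on the infested arrays, against 434 and 397.6 on the uninfested ones. Its log2 change was 1.33 with a 95% interval from 0.63 to 2.03 (adjusted p = 0.0558, or 0.00715 with the block). NDB2 passed without infested 1 (1.72, adjusted p = 0.000550) and without infested 2 (0.94, adjusted p = 0.0166), and not without uninfested 1 (adjusted p = 0.284) or uninfested 2 (0.280). Its direction is opposite to that of the NDH genes. NDC1, which is found in chloroplasts as well, had a log2 change of -0.39 (adjusted p = 0.388), NDB1 had -0.44 and NDB3 0.32. Without infested 2 the values were -0.09 for NDC1 and -0.03 for NDB1, and without infested 1 both passed (-0.70 and -0.85). Without infested 1, 18.7% of all tested probe sets were called lower, and PSAN, PSAE1, ndhA and ndhH passed too.

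The pattern over the 4 arrays was summarised as the mean of the 6 tested members, each centred on its own mean, which lay at -0.34 and -0.85 on the infested and 0.61 and 0.59 on the uninfested arrays. Among 7359 other tested probe sets with a single gene, the 3 nearest to this profile by root mean square difference over the 4 arrays were SBPASE (0.013), CHLM (0.023) and AT2G27680 (0.026), beside a median of 0.649. SBPASE encodes sedoheptulose bisphosphatase of the Calvin cycle, and CHLM the methyltransferase of magnesium protoporphyrin in chlorophyll synthesis. CHLM had 4288.5 and 3134.6 on the infested arrays, against 8607.5 and 8471.3 on the uninfested ones, or 43.5% of the uninfested mean. The members themselves lay between 0.172 (CRR21) and 0.348 (NdhN) from their own mean profile. These distances rest on 4 arrays and are a description.

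The calls depended on single arrays and on the filter. All 95 values of the 8 members under the 12 alternatives were below 0, but most alternatives could not turn a sign. Each member read lower on both infested arrays, so leaving out an array or changing the pseudocount keeps its direction. The filter, the variance trend and the block leave the value unchanged. Median scaling shifts every probe set of an array alike. It took the median of the tested members only from -1.16 to -1.18, too little to turn a sign. Only quantile normalization could have turned one. NdhL and NdhN were called under 9 of 12 alternatives each, CRR42 under 8, and CRR21 under 4 of the 11 in which it was tested. NdhS was called under 2, the block and leaving out infested 1, and CRR41 under 1, leaving out infested 1. Those 2 settings also called the largest shares of all tested probe sets lower. Over the alternatives that kept all 4 arrays, this share ran from 0% with every probe set tested to 10.3% with the block. No member was called without uninfested 1 or without uninfested 2, where limma called 0 of all tested probe sets in either direction (854 higher and 786 lower at an unadjusted p under 0.05 without uninfested 1, 1005 and 922 without uninfested 2), nor with every probe set tested. In those 3 settings 4, 5 and 6 members were lower at an unadjusted p under 0.05. An exact permutation test of 2 arrays against 2 cannot go below a p of 0.333.

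**Figure D5:**
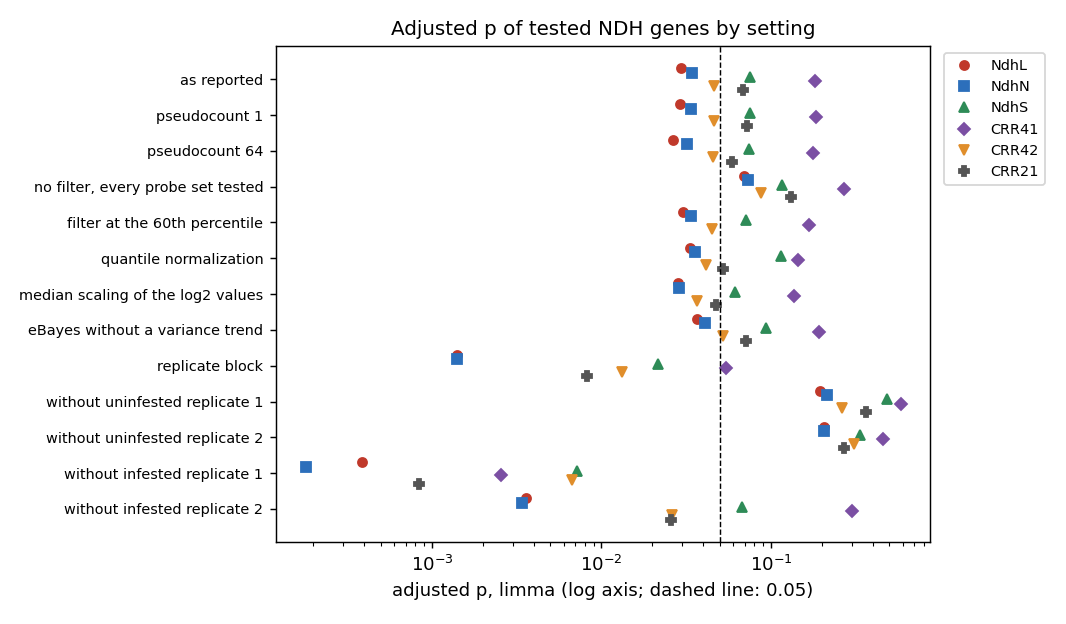
Adjusted p by limma (log axis, dashed line at 0.05) of the 6 tested members as reported and under 12 alternatives. NdhL and NdhN lie left of the line except with every probe set tested and without either uninfested array, where they reach 0.207 and 0.213.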

How the data were processed

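The deposited signal intensity is linear and came from MAS 5.0 as run by the authors with default settings, per the labels' processing notes and the series text; the equal trimmed means of the values show that each array had been scaled; detection calls were not used here. From the 22810 probe sets, 64 controls were set aside. The scale used was log2(signal + 16), which understates changes of dim genes. Probe sets below the 40th percentile of the mean were not tested, which left 13648, the dimmest equal to a signal of 116. The test was limma (version 3.58.1, R version 4.3.3, lmFit and trended eBayes), with a call where the Benjamini-Hochberg adjusted p was under 0.05. It was run on simulated data with the same spread for every probe set. That check does not cover the unequal spread of real probe sets. Names came from the platform annotation, matched to RefSeq (TAIR10.1) by gene number for 13436 of 13513 probe sets with 1 gene; 503 had several and 8730 are unnamed here.

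The members, lists and settings were chosen with earlier results of these data known, and 1 locus that the annotation leaves without a name was dropped from the lists. Named are all members, up to 6 tested genes of each list by p, and 3 genes by likeness of pattern. OTP85, ndhD, ndhI, ndhJ, NDB4 and the mesophyll, root and guard cell markers were named outside that rule, after their values were seen. Array numbers in the sample titles were taken to pair infested and uninfested pools, since the series text describes such pools under common experiment names; it does not state outright that the numbers are those names. Deviations of same-numbered arrays correlated at 0.264 across probe sets, which are not independent. The blocked fit has 1 residual and 7.26 prior degrees of freedom, against 2 and 3.66 without the block. Motif and protein descriptions planned for the members were not made, since no sequences were used here.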

Additional observations from a re-analysis of the deposited data

How the results depend on the processing

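The direction of all 8 members was the same under every alternative run, though most alternatives could not change it. The counts of calls did change. Testing every probe set gave 0 members called, and 0 higher and 0 lower among all probe sets (2453 and 2203 at an unadjusted p under 0.05 by limma). The replicate block raised the members called lower to 5 and the calls to 1254 higher and 1403 lower. It changed the calls of NdhS, CRR21, ndhE, ndhH and NDB2, and no other call among the 29 genes followed, which leave out the cell type markers. Median scaling gave 354 higher and 592 lower, against 386 and 347 as reported, and eBayes without a variance trend gave 199 lower. Leaving out 1 array gave 0 to 6 members lower, 0 to 2087 probe sets higher and 0 to 2553 lower, and a members' median from -1.43 to -0.91. Calls were 0 without either uninfested array and highest without infested 1; with 1 array in a group, only the other group gives a spread, and the lone array is assumed to vary like it. CRR22, with both infested signals at the absent level, had a log2 change of -2.26 with a pseudocount of 1 and -1.10 with 64. Over the 29 genes followed, 310 of 344 values kept their direction and side of the threshold or moved by less than the replicate spread. The 344 include genes too dim to test, whose values mostly have no adjusted p. The turned signs of ndhJ, ndhK and ndhD are among the 310. So are those of ndhI (-0.14 as reported, 0.15 with quantile normalization), OTP84 and NDB4. Of the values, 0 reversed a call, but of the 29 genes only NdhL, NdhN, CRR42 and Cpn60beta4 were called as reported. With 2 arrays per group, their number limits the precision, and for CRR22 and CRR28 so does the signal over background.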
